A study of Homo sapiens with 30 samples.

Results

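The splicing factors described here are the SR proteins, the heterogeneous nuclear ribonucleoproteins (hnRNPs) and a set of general factors that help to choose splice sites. They were taken as every probe set annotated with 1 gene symbol that was SRSF with a number, HNRNP with any ending, TRA2A, TRA2B, U2AF1, U2AF2, SF1, SRRM1, SRRM2, SYNCRIP, PTBP1, RBM39, or a gene of the SF3A and SF3B series. This gave 115 of the 22283 probe sets of the array, for 46 genes, of which 45 are protein-coding and 1, HNRNPA3P1, is a pseudogene. A further 19 probe sets that list a member beside other genes were left out, which removed SRSF2, SRSF9 and HNRNPH2 from the set. After the filter on dim signal, 101 probe sets of 45 genes were tested, and these were not all members: 14 probe sets were too dim, among them the 1 of HNRNPA3P1.

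RNA was measured in GM15036 and GM15510, established human lymphoblastoid cell lines, which are B cells immortalised by Epstein-Barr virus. Each line was grown in suspension, exposed to caesium-137 radiation and hybridised to 3 arrays at each of 1, 2.5, 5, 7.5 and 10 cGy, giving 10 groups and 30 arrays. Doses are in cGy as labelled, although the series design writes Gy beside identical figures, and no source used here states how long after exposure RNA was taken. No unirradiated group was used, so each dose was set against 1 cGy of the same line, and the 4 dose comparisons of a line share those 1 cGy arrays.
The arrays are called triplicates and may be repeats of 1 culture, in which case the p-values reflect technical spread alone. Each line is 1 donor's cells, and fewer cells of a type cannot be told apart from less RNA per cell.

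In the nucleus, a first set of factors marks the ends of an intron: SF1 binds the branch point, U2AF2 the polypyrimidine tract, U2AF1 the terminal AG, and SF3A and SF3B, as part of the U2 ribonucleoprotein, then hold the branch site. SR proteins bind exonic enhancers and mostly favour inclusion of the exon, while many hnRNPs bind silencers and oppose it, so the balance between the families helps to set which exons are used. Several SR and hnRNP genes are known to limit their own protein through poison exons, and phosphorylation of SR proteins, more than their amount, is a known point of control in stressed cells.

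Brightness, taken as each array's trimmed mean before scaling, ran from 14.1 to 112. In order of dose, its group means were 69.6 ± 10.2, 49.8 ± 6.12, 51.3 ± 3.47, 32.4 ± 4.73 and 22.1 ± 10.4 in GM15036 and 69.4 ± 10.5, 18.7 ± 4.48, 39.0 ± 26.6, 67.7 ± 21.7 and 89.1 ± 23.6 in GM15510 (SD, n = 3 each). The log2 ratio of 3-prime to 5-prime ACTB signal, a sign of RNA integrity and labelling, was lowest at 1 cGy in both lines. In order of dose its group means were 4.48, 5.51, 5.03, 5.40 and 5.20 in GM15036 and 3.75, 4.29, 4.81, 3.78 and 5.16 in GM15510, so it moved with most of the dose comparisons, and its part in them was not tested. The same ratio for GAPDH was not lowest at 1 cGy in either line. Its group means were 2.51, 2.66, 2.47, 2.82 and 2.84 in GM15036 and 2.47, 2.27, 2.36, 2.43 and 2.45 in GM15510. Signals below are the deposited intensities scaled to a common brightness, and changes are differences of log2(signal + 4). All 10 B cell markers examined, CD79A and PAX5 among them, had a tested probe set, and their summed signal was 1812 to 3651 per array. Of 8 T and NK cell markers and 6 monocyte markers on the array, 1 of each list passed the filter, and the summed signal was at most 101 and 71.8. Of 5 fibroblast markers on the array 2 passed, with a sum of at most 97.2, and of 2 erythroid markers 1 passed, with at most 26.7. At 10 cGy in GM15036 the B cell sum was 3498 to 3651, against 2860 to 2959 at 1 cGy, and the T and NK cell sum was 76.5 to 101, against 48.8 to 58.8, without overlap. In GM15510 the B cell sum was 2077 to 2146 at 10 cGy, against 1963 to 2106. The part of these shifts in the results was not tested.

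At 10 cGy the 2 lines went different ways. In GM15036, 17 of the 101 probe sets passed an adjusted p of 0.05, 1 higher and 16 lower than at 1 cGy, with 11.7% of all 13331 tested probe sets passing, 4.39% higher and 7.35% lower. In GM15510, 26 passed, 20 higher and 6 lower, with a background of 5.91%, 3.09% higher and 2.82% lower. The median change of the splicing factors was -0.118 in GM15036, against 0.030 over all probe sets, and 0.107 in GM15510, against -0.005 over all. Calls that held when each of the 30 arrays was left out in turn numbered 8 of the 17 in GM15036 and 13 of the 26 in GM15510. Brightness moved with the first of these comparisons: with it as a covariate 3 of the calls in GM15036 were made and 28 in GM15510, and without the 5 dimmest arrays the counts were 5 and 27. The 3 in GM15036 were HNRNPD 213359_at, HNRNPA0 201054_at and HNRNPK 200775_s_at, so every other call in that comparison, SR proteins included, missed the threshold with the covariate. Without GM15510 10 cGy replicate 2, the count in GM15510 was 17. Centring the unscaled arrays on their medians moved the median of all probe sets to -0.375 at 10 cGy in GM15036 and to -0.495 at 2.5 cGy in GM15510, and gave 72 lower and 0 higher in GM15036 and 8 higher and 0 lower in GM15510. For the alternatives and the fits without single arrays, here and below, the share of all tested probe sets that passed is not given. Counts under those settings therefore describe the members alone.

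At 2.5, 5 and 7.5 cGy, GM15036 had 0 or 1 calls and GM15510 had 5 to 27. In GM15036, limma called 0 splicing factors at 2.5 cGy (background 0.548%, 0.12% higher and 0.428% lower) and 0 at 5 cGy (background 0.143%, 0.0525% higher and 0.09% lower), where 17 and 10 had an unadjusted p under 0.05 and, with each line fitted alone, 3 and 0 were called. The count of calls at 2.5 cGy became 1 without GM15036 7.5 cGy replicate a. Counts at an unadjusted p under 0.05, here and below, are given without the share of all tested probe sets at that threshold. The percentages beside them are for the adjusted p and do not serve as their background, so these counts describe the members alone. At 7.5 cGy the single call, lower, was HNRNPK (background 3.22%, 1.27% higher and 1.95% lower). That count was 0 without GM15036 1 cGy replicate b or 7.5 cGy replicates b or c, 5 without 7.5 cGy replicate a, and 2 without GM15510 2.5 cGy replicates 2 or 3 or 5 cGy replicate 1. In GM15510, 27 passed at 2.5 cGy, 14 higher and 13 lower (background 9.49%, 3.92% higher and 5.57% lower), 15 at 5 cGy, 8 higher and 7 lower (background 4.19%, 2.08% higher and 2.12% lower), and 5 at 7.5 cGy, 3 higher and 2 lower (background 1.79%, 1.04% higher and 0.743% lower). The balance of directions depended on the scaling: after centring the unscaled arrays, the split was 0 higher and 69 lower at 2.5 cGy and 1 higher and 36 lower at 5 cGy, and after centring the scaled arrays it was 4 higher and 37 lower at 2.5 cGy and 4 higher and 14 lower at 5 cGy. Quantile normalization gave 6 higher and 8 lower at 5 cGy. Single arrays also counted: the 27 calls became 16 without GM15510 1 cGy replicate 1 and 17 without replicate 2, the 15 became 7 without 1 cGy replicate 3 and 9 without 1 cGy replicate 1, 5 cGy replicate 1 or 5 cGy replicate 2b, and the 5 became 1 to 3 without any 1 of the arrays at 1 or 7.5 cGy. Brightness was lowest at 2.5 cGy, and with it as a covariate 3 calls were made there, for U2AF1, HNRNPH3 207127_s_at and PTBP1, so the other calls at 2.5 cGy described below missed the threshold in that fit.

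**Figure D1:**
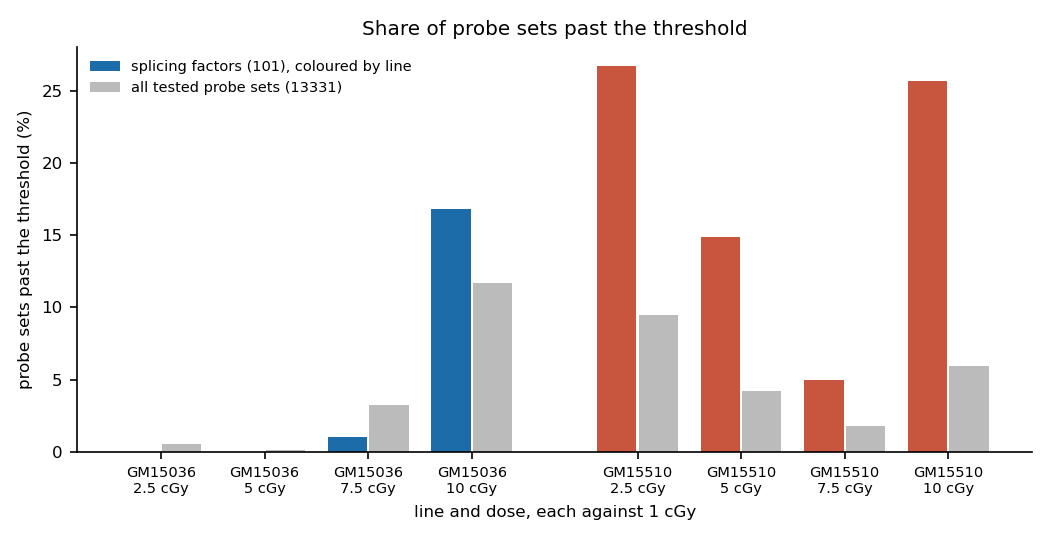
Bars give the percentage of probe sets past an adjusted p of 0.05 at each dose against 1 cGy (y axis, percent), for the 101 splicing factor probe sets (coloured by line) and for all 13331 tested probe sets (grey). The coloured bar stands above the grey one at 10 cGy in both lines (16.8% against 11.7% in GM15036) and at 2.5, 5 and 7.5 cGy in GM15510, and below it at 2.5, 5 and 7.5 cGy in GM15036.

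HNRNPD, HNRNPA0 and HNRNPK were the genes with a probe set that passed at 10 cGy in opposite directions in the 2 lines. In each, that probe set was lower at 10 than at 1 cGy in GM15036 and higher in GM15510, with 3 arrays on either side that did not overlap. Lack of overlap went with every dose call of the members except that of SF3A1 216457_s_at at 2.5 cGy in GM15510. Here and below, it therefore adds no support to a call. HNRNPD, also called AUF1, binds AU-rich elements and is best known for directing the decay of unstable messages, HNRNPA0 binds similar AU-rich sites, and HNRNPK binds runs of C and takes part in the p53 response to DNA damage. Their start regions in RefSeq (GRCh38.p14), 250 bases before to 50 after each annotated start, are shown because these probe sets differed in direction between the lines at 10 cGy, although other probe sets of the same genes, given below, did not all do so. All 3 lie on the minus strand, at chr4:82373942-82374241 for HNRNPD, chr5:137754314-137754613 for HNRNPA0, and chr9:83980566-83980865 and chr9:83980166-83980465 for the 2 annotated starts of HNRNPK. Sequences run 5′ to 3′ along the gene, and capitals mark the E-box CACGTG, the ETS-type motif CCGGAAG, the CCAAT box and TATAAA, each searched on both strands.
HNRNPD: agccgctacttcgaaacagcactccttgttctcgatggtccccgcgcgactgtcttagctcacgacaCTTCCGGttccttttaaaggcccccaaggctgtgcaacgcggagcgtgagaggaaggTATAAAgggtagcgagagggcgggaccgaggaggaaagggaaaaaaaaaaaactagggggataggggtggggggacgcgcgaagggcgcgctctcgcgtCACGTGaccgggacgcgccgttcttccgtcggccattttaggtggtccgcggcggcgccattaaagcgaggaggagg
HNRNPA0: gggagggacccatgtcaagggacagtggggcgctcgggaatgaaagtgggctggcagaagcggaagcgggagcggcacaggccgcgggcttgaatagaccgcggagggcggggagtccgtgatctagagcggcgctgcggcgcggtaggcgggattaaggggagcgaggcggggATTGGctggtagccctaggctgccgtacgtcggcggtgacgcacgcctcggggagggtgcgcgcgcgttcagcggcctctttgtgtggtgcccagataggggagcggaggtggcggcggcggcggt
HNRNPK first start: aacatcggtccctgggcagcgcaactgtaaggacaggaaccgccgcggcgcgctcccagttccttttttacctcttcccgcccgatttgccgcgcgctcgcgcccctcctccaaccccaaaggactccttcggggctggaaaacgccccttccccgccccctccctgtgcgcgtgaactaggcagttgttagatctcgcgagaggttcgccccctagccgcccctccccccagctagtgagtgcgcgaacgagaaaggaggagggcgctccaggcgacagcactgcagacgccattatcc
HNRNPK second start: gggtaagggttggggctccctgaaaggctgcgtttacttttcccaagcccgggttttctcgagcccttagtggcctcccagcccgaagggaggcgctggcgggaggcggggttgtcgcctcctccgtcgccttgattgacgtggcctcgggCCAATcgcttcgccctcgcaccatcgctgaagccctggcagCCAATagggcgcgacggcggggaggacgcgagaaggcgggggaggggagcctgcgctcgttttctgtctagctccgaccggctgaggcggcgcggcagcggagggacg
HNRNPD had 1 CACGTG, 1 CCGGAAG on the opposite strand and 1 TATAAA, HNRNPA0 had 1 CCAAT on the opposite strand, and HNRNPK had 2 CCAAT at the second start and no match at the first. RefSeq windows were found for 41 of the 45 protein-coding members, 59 windows in all, with some genes holding several starts. CACGTG was in 16.9% of them, against 8.34% of all 22199 windows of protein-coding genes, CCGGAAG in 18.6%, against 12.8%, CCAAT in 40.7%, against 34.7%, TATAAA in 10.2%, against 9.47%, and the SP1-type GGGCGG, not capitalised, in 62.7%, against 56.3%. The cyclic AMP element TGACGTCA was in 0% of the member windows, against 2.26%. Members had a median GC content of 66.0%, against 62.3% over all windows, and a match describes only these letters.

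HNRNPD (209330_s_at) had scaled signals of 314, 270 and 315 at 10 cGy in GM15036, against 434, 459 and 401 at 1 cGy, and of 612, 611 and 541 at 10 cGy in GM15510, against 429, 386 and 410 at 1 cGy. The arrays at 2.5, 5 and 7.5 cGy stayed near the 1 cGy level in both lines, between 397 and 467 in GM15036 and between 353 and 457 in GM15510, so the change was seen at the highest dose. It fell by 0.52 ± 0.09 (SE, log2) in GM15036 (adjusted p = 0.000176) and rose by 0.52 ± 0.09 in GM15510 (adjusted p = 0.000303). Both calls held without each array, the first gave an adjusted p of 0.0759 with brightness as a covariate, and the second gave 0.104 after centring the unscaled arrays.

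HNRNPA0 (201054_at) read 201, 158 and 167 at 10 cGy in GM15036, against 255, 287 and 247 at 1 cGy, and 319, 347 and 329 at 10 cGy in GM15510, against 225, 241 and 213. It fell by 0.58 ± 0.13 in GM15036 (adjusted p = 0.00273), a call made under every alternative tried and without each array. In GM15510 it rose by 0.54 ± 0.13 (adjusted p = 0.00795), a call lost after centring the unscaled arrays (adjusted p = 0.082). The second HNRNPA0 probe set, 201055_s_at, read 69.3, 74.1 and 65.6 at 10 cGy in GM15510, against 35.7, 31.1 and 39.6 at 1 cGy, a rise of 0.90 ± 0.15 (adjusted p = 0.000106) made under every alternative. It also rose at 5 cGy in that line, by 0.92 (69, 66.4 and 76.2; adjusted p = 0.000151), again under every alternative and without each array, and at 2.5 cGy by 0.59 (adjusted p = 0.00831; 0.055 without GM15510 1 cGy replicate 2, 0.0738 without 2.5 cGy replicate 2 and 0.97 after centring the unscaled arrays). In GM15036 this second set differed by 0.15 (adjusted p = 0.604), with 123, 94.7 and 102 at 10 cGy, against 91.4, 96.8 and 97.7 at 1 cGy.

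HNRNPK (200775_s_at) read 1040, 1063 and 832 at 1 cGy in GM15036, 1031, 992 and 932 at 2.5 cGy, 901, 889 and 862 at 5 cGy, 752, 864 and 781 at 7.5 cGy and 691, 663 and 734 at 10 cGy. The 2.5 cGy arrays stood at the 1 cGy level (a change of 0.02), and the arrays at 10 cGy lay below all others. The slope on dose was -0.056 ± 0.009 log2 per cGy (adjusted p = 4.49e-05), and the change at 10 cGy was -0.48 ± 0.09 (adjusted p = 0.000526; 0.0725 without the 5 dimmest arrays). In GM15510 the same probe set read 884, 1023 and 963 at 10 cGy, against 713, 802 and 669 at 1 cGy, a rise of 0.39 ± 0.09 (adjusted p = 0.00674) that was lost without GM15510 1 cGy replicate 3 (0.0615) or 10 cGy replicate 2 (0.0528) and after centring the unscaled arrays (0.197). It was also higher at 2.5 cGy, by 0.39 (adjusted p = 0.00575), where that centring turned the sign, to -0.38.

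**Figure D2:**
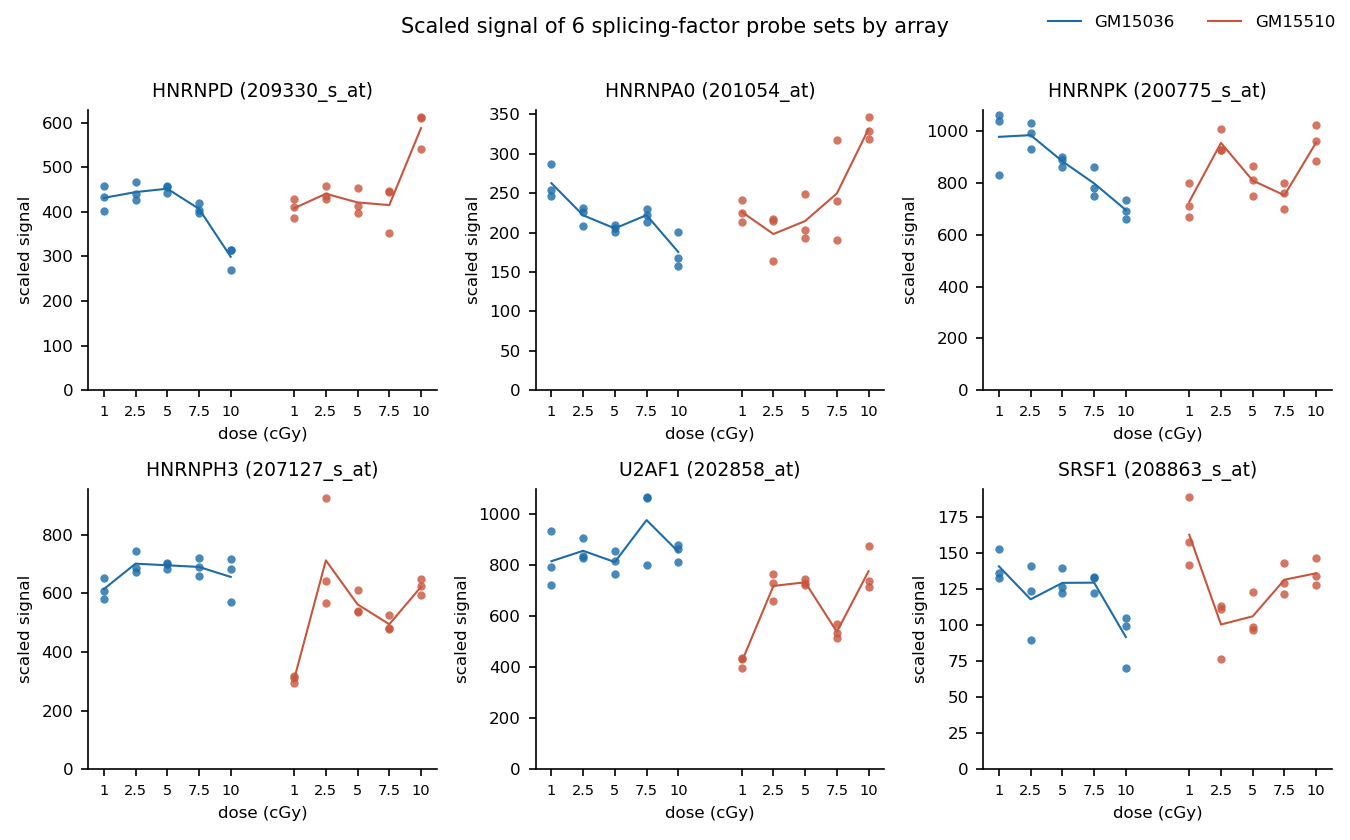
Points are single arrays and lines join group means of scaled signal (y axis, from 0) at 1 to 10 cGy (x axis) in GM15036 (blue, left) and GM15510 (red, right), for 6 probe sets. HNRNPD at 10 cGy reads 270 to 315 in GM15036 and 541 to 612 in GM15510, while HNRNPH3 and U2AF1 in GM15510 are lowest at 1 cGy, at 293 to 318 and 396 to 435.

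Every SR protein probe set that passed in a dose comparison was lower than at 1 cGy. The 26 probe sets of SRSF1, SRSF3, SRSF4, SRSF5, SRSF6, SRSF7, SRSF8, SRSF10 and SRSF11 included 24 that were tested, of which 0 rose and 5 fell at 10 cGy in GM15036 (20.8% called, background 11.7%). In GM15510, 0 rose at any dose, and 5 fell at 2.5 cGy (20.8%, background 9.49%), 3 at 5 cGy (12.5%, background 4.19%) and 2 at 10 cGy (8.33%, background 5.91%). In the remaining comparisons limma called 0 SR protein sets. There an unadjusted p under 0.05, for which no background is given, was met by 1, 2 and 5 sets in GM15036 (2.5, 5 and 7.5 cGy) and by 4 sets in GM15510 (7.5 cGy). The median change of the 24 tested sets at 10 cGy was -0.14 in GM15036 and -0.0373 in GM15510.

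SRSF1, a general activator of splicing, showed this in both lines. Probe set 208863_s_at read 70.3, 99.6 and 105 at 10 cGy in GM15036, against 153, 133 and 136 at 1 cGy, with no overlap. It fell by 0.61 ± 0.16 (adjusted p = 0.00785; 0.0888 without GM15036 10 cGy replicate a), and 201742_x_at fell by 0.72 ± 0.17 (adjusted p = 0.00533; 0.0862 without 10 cGy replicate b). In GM15510, 208863_s_at fell by 0.69 ± 0.16 at 2.5 cGy (113, 76.7 and 111, against 142, 158 and 189; adjusted p = 0.00433), the dimmest group of that line (adjusted p = 0.102 with brightness as a covariate). At 5 cGy it fell by 0.60 ± 0.16 (adjusted p = 0.0224), a call lost without GM15510 1 cGy replicates 2 (0.0563) or 3 (0.16) or 5 cGy replicates 2b (0.0928) or 3 (0.0775). At 7.5 and 10 cGy it stood at -0.29 and -0.24 (adjusted p = 0.484 and 0.508). The remaining tested SRSF1 probe set, 211784_s_at, pointed the other way, at 0.39 in GM15036 and 0.35 in GM15510 at 10 cGy (adjusted p = 0.105 and 0.228), so the gene's own probe sets did not move as one.

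SRSF7, whose protein carries a zinc knuckle and also acts in mRNA export, read 349, 384 and 364 at 10 cGy in GM15036 on probe set 214141_x_at, against 494, 507 and 556 at 1 cGy. It fell by 0.50 ± 0.13 (adjusted p = 0.00841), held without each array, and was lost with brightness as a covariate (0.36) or without the 5 dimmest arrays (0.111). Another set of the gene, 201129_at, stood at -0.37 there (adjusted p = 0.0697) and fell by 0.62 ± 0.14 at 2.5 cGy in GM15510 (69.2, 58.9 and 59.1, against 94.4, 91.9 and 107; adjusted p = 0.00294, and 0.482 with brightness as a covariate). The remaining 2 SRSF7 sets, 211439_at and 213649_at, passed nowhere among the dose comparisons.

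SRSF10, which turns into a repressor of splicing when dephosphorylated, as after heat shock, read 132, 117 and 150 at 10 cGy in GM15036 on 206095_s_at, against 199, 161 and 204 at 1 cGy. In GM15510 it read 176, 187 and 179 at 10 cGy, against 236, 258 and 317. The change was -0.49 in GM15036 (adjusted p = 0.0292) and -0.56 in GM15510 (adjusted p = 0.0197). Both calls depended on single arrays: the first was lost without GM15036 1 cGy replicates a (0.0979) or c (0.122) or 10 cGy replicates a (0.0683) or b (0.144), and the second without GM15510 1 cGy replicate 3 (0.153) or 10 cGy replicates 1 (0.0679) or 3 (0.0679). At 5 cGy in GM15510 it was at -0.60 (adjusted p = 0.0148), lost without GM15510 1 cGy replicate 3 (0.131) or 5 cGy replicates 1 (0.137) or 2b (0.0581). A second set, 204299_at, fell by 0.70 ± 0.17 at 2.5 cGy in GM15510 (adjusted p = 0.00665, and 0.834 with brightness as a covariate). At 10 cGy it stood at -0.33 in GM15036 and 0.18 in GM15510 (adjusted p = 0.229 and 0.717). The remaining SRSF10 sets, 210178_x_at and 213594_x_at, passed in no dose comparison. At 10 cGy they stood at 0.48 and -0.02 in GM15036 and at 0.14 and -0.11 in GM15510, so the sets did not move as one.

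Among the remaining SR genes, SRSF3, a small SR protein that also binds export factors, read 1168, 1173 and 1250 on 208672_s_at at 10 cGy in GM15510, against 1475, 1579 and 1568, a fall of 0.36 ± 0.08 (adjusted p = 0.00426). In GM15036 the same set was at -0.10 (adjusted p = 0.497), with 1156, 1197 and 1212 against 1367, 1249 and 1211. SRSF4 fell in GM15510 at 2.5 cGy by 0.49 (122, 105 and 112, against 164, 148 and 171; adjusted p = 0.00575) and at 5 cGy by 0.52 (106, 124 and 103; adjusted p = 0.00624), and was at -0.06 and -0.08 at 7.5 and 10 cGy. SRSF6 (208804_s_at) fell by 0.33 at 10 cGy in GM15036 (294, 310 and 303, against 402, 356 and 389; adjusted p = 0.0126, and 0.062 without GM15036 1 cGy replicate a). SRSF11 (200685_at) passed at 2.5 cGy in GM15510 at -0.58 (adjusted p = 0.0426), a call lost without 6 of the 30 arrays. SRSF5 and SRSF8 passed in no dose comparison, with changes between -0.44 and 0.42.

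The TRA2 proteins, SR-like activators that bind GA-rich exonic enhancers, moved in GM15510. TRA2A (204658_at) read 222, 197 and 207 at 10 cGy in GM15510, against 113, 140 and 120 at 1 cGy, and its arrays at 2.5, 5 and 7.5 cGy lay between 79.5 and 149. It rose by 0.73 ± 0.14 (adjusted p = 0.000929) under every alternative tried. In GM15036 it read 159, 159 and 170 at 10 cGy, against 195, 215 and 237, a change of -0.40 that did not pass (adjusted p = 0.0668). The other tested TRA2A set, 213593_s_at, passed in no dose comparison and pointed the other way in both lines. At 10 cGy it stood at -0.22 in GM15510 and 0.37 in GM15036 (adjusted p = 0.805 and 0.445).
TRA2B gave opposite calls at 2.5 cGy in GM15510. Probe set 200892_s_at read 201, 182 and 177, against 272, 264 and 268, and fell by 0.51 ± 0.09 (adjusted p = 0.000307, and 0.465 with brightness as a covariate). Probe set 200893_at read 1751, 1860 and 2042, against 1523, 1603 and 1514, and was higher by 0.28 ± 0.09 (adjusted p = 0.0321), a call lost without 5 of the 30 arrays and turned to -0.50 by centring the unscaled arrays. At 5 cGy 200892_s_at passed at -0.31 (adjusted p = 0.0477) and was lost without 22 of the arrays.

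SRRM2, a scaffold of nuclear speckles, was the single splicing factor that rose at 10 cGy in GM15036. Probe set 208610_s_at read 526, 488 and 548 there, against 232, 241 and 335 at 1 cGy. The rise of 0.96 ± 0.20 (adjusted p = 0.00092) held without each array, and its adjusted p was 0.308 after centring the unscaled arrays and 0.0686 with brightness as a covariate. The 3 arrays at 2.5 cGy in that line, 423, 492 and 326, also lay mostly above 1 cGy (0.61, adjusted p = 0.176), and those at 5 cGy, 246, 214 and 221, did not, so there was no steady course with dose. Its slope in GM15036 passed all the same, at 0.066 log2 per cGy (adjusted p = 0.0159; lost without 2 of the arrays, and 0.901 after centring the unscaled arrays). In GM15510 it was at -0.22 at 10 cGy (adjusted p = 0.694). For SRRM2 the other tested set, 207435_s_at, stood at 0.54 in GM15036 and 0.71 in GM15510 at 10 cGy (adjusted p = 0.244 and 0.167). Its partner SRRM1 (201225_s_at) was higher in GM15510 by 0.47 at 10 cGy (802, 838 and 785, against 623, 589 and 544; adjusted p = 0.00916, and 0.0625 without GM15510 1 cGy replicate 3), and by 0.49 at 2.5 cGy (adjusted p = 0.00469), where centring the unscaled arrays turned the sign, to -0.28.

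U2AF1, the reader of the intron's last AG, gave one of the most stable calls. In GM15510 it read 431, 396 and 435 at 1 cGy, 731, 766 and 658 at 2.5 cGy, 746, 729 and 723 at 5 cGy, 533, 570 and 512 at 7.5 cGy and 736, 876 and 715 at 10 cGy. All 12 arrays at the higher doses lay above the 3 at 1 cGy, and those 3 arrays are the base of each of the 4 comparisons. It rose by 0.76, 0.80 and 0.87 at 2.5, 5 and 10 cGy (adjusted p = 7.72e-06, 8.24e-06 and 5.94e-07) and stood at 0.35 at 7.5 cGy (adjusted p = 0.0723). The call at 10 cGy was made under every alternative and without each array, while centring the unscaled arrays left -0.00030 at 2.5 cGy, the reverse sign, and an adjusted p of 0.131 at 5 cGy. In GM15036 the 15 arrays ran from 721 to 1066 with no call at any dose. U2AF2, the large subunit, which binds the polypyrimidine tract, had 1 of 3 probe sets tested and no call.
SF1 (208313_s_at), the branch point binder, went both ways in GM15510. It read 100, 98.5 and 95.4 at 1 cGy, 84.9, 58.2 and 55.1 at 5 cGy, 62.7, 72.6 and 64.5 at 7.5 cGy and 135, 153 and 157 at 10 cGy. The rise of 0.58 ± 0.14 at 10 cGy (adjusted p = 0.00696) held without each array, with 0.0504 after centring the unscaled arrays. The fall of 0.57 at 5 cGy (adjusted p = 0.0118) was lost without GM15510 1 cGy replicate 1 (0.0524) or 5 cGy replicates 2b (0.0736) or 3 (0.0717), and that of 0.53 at 7.5 cGy (adjusted p = 0.0337) without 5 arrays. In GM15036 208313_s_at stayed between 95.9 and 148. The other tested SF1 set, 210172_at, passed in no dose comparison. At 10 cGy it stood at -0.62 in GM15510, the reverse sign, and at 0.27 in GM15036 (adjusted p = 0.551 and 0.755).

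The SF3A and SF3B subunits, which anchor the U2 ribonucleoprotein at the branch site, had 14 tested probe sets of 8 genes. At 10 cGy 0 rose and 2 fell in each line (14.3% called, against backgrounds of 11.7% in GM15036 and 5.91% in GM15510), and at 2.5 cGy in GM15510 2 rose and 2 fell (28.6%, background 9.49%). In the other comparisons limma called 0. There an unadjusted p under 0.05, for which no background is given, was met by 0, 2 and 5 sets in GM15036 (2.5, 5 and 7.5 cGy) and by 3 and 4 sets in GM15510 (5 and 7.5 cGy). SF3B1, the large subunit in contact with the branch region, was lower on 211185_s_at at 10 cGy in both lines, with 829, 687 and 767 against 902, 972 and 901 in GM15036, and 874, 810 and 890 against 1122, 1093 and 1053 in GM15510. The change was -0.28 in GM15036 (adjusted p = 0.0179, and 0.0975 without GM15036 1 cGy replicate b or 0.133 without 10 cGy replicate b) and -0.34 in GM15510 (adjusted p = 0.00673, and 0.051 without GM15510 10 cGy replicate 2). SF3B1 201071_x_at passed in GM15510 at -0.31 at 2.5 cGy and -0.30 at 10 cGy (adjusted p = 0.0183 and 0.0291), calls lost without 3 and 4 of the arrays. A further SF3B1 set, 214305_s_at, stood at 0.56 in GM15036 and -0.32 in GM15510 (adjusted p = 0.0538 and 0.441).
SF3A1 rose at 2.5 cGy in GM15510 on 201356_at by 0.63 ± 0.12 (352, 343 and 292, against 231, 187 and 215; adjusted p = 0.000706), with a sign turned to -0.11 by centring the unscaled arrays. Its set 216457_s_at passed at 0.58 (adjusted p = 0.0267) with overlapping arrays, was lost without 4 of the arrays and turned to -0.11 likewise. SF3A3 was lower there by 0.47 (85.2, 121 and 105, against 133, 156 and 145; adjusted p = 0.0123), a call lost without GM15510 1 cGy replicate 2 (0.0676) or 2.5 cGy replicate 1 (0.0931). SF3B3 (200687_s_at) passed at 10 cGy in GM15036 at -0.41 (adjusted p = 0.0398) and lost its call without GM15036 1 cGy replicate c (0.351) or 10 cGy replicates a (0.0916) or c (0.157). SF3A2, SF3B2, SF3B4 and SF3B5 passed in no dose comparison.

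The hnRNP A, B and D genes, whose proteins share paired RNA recognition motifs, held 19 tested probe sets: 0 rose and 7 fell at 10 cGy in GM15036 (36.8% called, background 11.7%), and 6 rose and 2 fell in GM15510 (42.1%, background 5.91%). The median change at 10 cGy was -0.223 in GM15036 and 0.107 in GM15510. HNRNPD had the largest fall of any tested member at 10 cGy in GM15036, on 213359_at, with 68.9, 122 and 90.1 at 10 cGy, against 223, 185 and 153 at 1 cGy. This set fell by 0.99 ± 0.15 (adjusted p = 4.12e-05) under every alternative and without each array. In GM15510 it read 159, 142 and 165, against 239, 235 and 245, and fell by 0.61 ± 0.15 (adjusted p = 0.0114, and 0.0666 without GM15510 10 cGy replicate 2). So within GM15510 at 10 cGy the gene gave calls in both directions, since 209330_s_at rose, as described above, and 200073_s_at passed at 0.32 (adjusted p = 0.0297; lost without 6 of the 30 arrays). The other 2 tested HNRNPD sets did not pass.

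HNRNPA1, a classical binder of exonic silencers, was lower at 10 cGy in both lines on 222040_at. It read 108, 106 and 113 in GM15036, against 162, 178 and 147, and 119, 127 and 119 in GM15510, against 206, 205 and 201, with no overlap in either. The falls were 0.55 ± 0.12 (adjusted p = 0.00227) and 0.73 ± 0.12 (adjusted p = 0.000195), and both held without each array. With brightness as a covariate or without the 5 dimmest arrays the call in GM15036 was lost, and centring the unscaled arrays gave 0.0504 in GM15510. The course in GM15510 was uneven, with a fall of 0.55 (adjusted p = 0.00336) to 124, 136 and 155 at 2.5 cGy and 183, 214 and 240 at 7.5 cGy. The other HNRNPA1 sets, 214280_x_at and 221919_at, lay between -0.03 and 0.02 at 10 cGy.
HNRNPA2B1, which also sorts RNA for transport, read 2653, 2910 and 3041 at 10 cGy in GM15510, against 1754, 1852 and 1637. It rose by 0.71 ± 0.11 (adjusted p = 5.83e-05) under every alternative tried. At 5 cGy it rose by 0.45 (adjusted p = 0.0138; 0.0879 without GM15510 1 cGy replicate 3, 0.145 without 5 cGy replicate 1 and 0.917 after centring the unscaled arrays), and at 2.5 cGy the call at 0.34 (adjusted p = 0.0477) was lost without 19 of the 30 arrays. In GM15036 the set was at 0.29 at 10 cGy (adjusted p = 0.0825).
HNRNPDL, a close relative of HNRNPD, fell in GM15036 on 212454_x_at by 0.45 ± 0.09 (348, 336 and 379, against 482, 482 and 493; adjusted p = 0.000995). Its sets 209067_s_at and 209068_at passed at -0.34 and -0.49 (adjusted p = 0.0351 and 0.0348), and each lost its call without 4 of the arrays at 1 or 10 cGy of that line. In GM15510 209068_at passed at 5 cGy, at -0.54 (adjusted p = 0.0403), and was lost without 4 of the 30 arrays. HNRNPAB passed at 10 cGy in GM15510 at 0.29 (adjusted p = 0.0335; lost without 5 arrays), and the 3 sets of HNRNPA3 passed in no dose comparison.

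**Figure D3:**
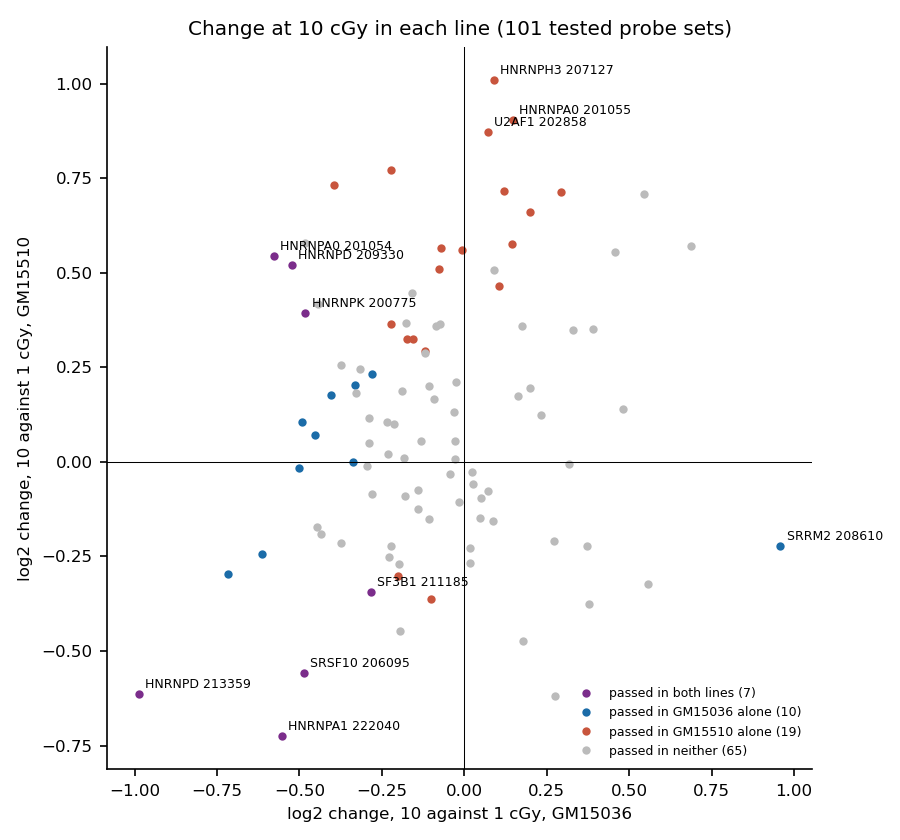
Each point is 1 of the 101 tested probe sets, placed by its log2 change at 10 against 1 cGy in GM15036 (x axis) and in GM15510 (y axis), and coloured by the lines in which it passed. Of the 7 that passed in both lines, HNRNPA0, HNRNPD 209330 and HNRNPK lie at the upper left, lower in GM15036 and higher in GM15510, and HNRNPD 213359, HNRNPA1, SRSF10 and SF3B1 lie at the lower left.

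The hnRNP F and H proteins bind runs of G in introns and exons, and their calls were almost all higher in GM15510. Of 8 tested probe sets, 4 rose and 2 fell at 2.5 cGy in that line (75% called, background 9.49%), 4 rose and 0 fell at 5 cGy (50%, background 4.19%), 3 rose and 0 fell at 7.5 cGy (37.5%, background 1.79%), and 4 rose and 0 fell at 10 cGy (50%, background 5.91%). At each dose 3 of the sets that rose were of 1 gene, HNRNPH3. In GM15036 limma called 0 of the 8 at each dose, where 3, 0, 1 and 0 had an unadjusted p under 0.05 at 2.5, 5, 7.5 and 10 cGy (no background given).
HNRNPH3 (207127_s_at) read 311, 318 and 293 at 1 cGy in GM15510, 644, 927 and 568 at 2.5 cGy, 612, 536 and 540 at 5 cGy, 526, 478 and 480 at 7.5 cGy and 593, 648 and 627 at 10 cGy. The rises were 1.17, 0.86, 0.68 and 1.01 (SE 0.11 each; adjusted p = 2.27e-08, 9.66e-06, 0.000902 and 2.66e-07). Every array above 1 cGy was higher than the 3 at 1 cGy, which serve all 4 comparisons. In GM15036 the 15 arrays ran from 570 to 746, so at 1 cGy GM15510 stood below every GM15036 array and at the higher doses nearer to them. Centring the unscaled arrays gave adjusted p-values of 0.0525, 0.0716 and 0.247 at 2.5, 5 and 7.5 cGy.
Further HNRNPH3 sets were higher too: 210588_x_at rose by 0.51, 0.68, 0.56 and 0.72 at 2.5, 5, 7.5 and 10 cGy (adjusted p = 0.00466, 0.000477, 0.00784 and 0.000133), with the calls at 2.5 and 7.5 cGy lost without GM15510 1 cGy replicate 1 (0.0577 and 0.101), and 210110_x_at passed at 0.71 to 0.77, each call lost without at least 2 single arrays. At 2.5 cGy centring the unscaled arrays turned both signs, to -0.25 and -0.012. The fourth set, 208990_s_at, passed at 2.5 cGy in the other direction, at -0.31 (adjusted p = 0.036), and was lost without GM15510 1 cGy replicates 1 (0.123) or 3 (0.133) or 2.5 cGy replicate 3 (0.145).
HNRNPH1 (201031_s_at) rose by 0.82 ± 0.17 at 2.5 cGy (1392, 1419 and 1216, against 804, 871 and 619; adjusted p = 0.00197) and by 0.66 at 10 cGy (1056, 1335 and 1223; adjusted p = 0.0152). The second call was lost without GM15510 1 cGy replicate 3 (0.133) or 10 cGy replicates 2 (0.0891) or 3 (0.0611), and the first had an adjusted p of 0.862 after centring the unscaled arrays and 0.654 with brightness as a covariate. HNRNPH1 213619_at passed at 5 cGy at 0.46 (adjusted p = 0.0334) and was lost without 3 of the arrays. HNRNPF was lower at 2.5 cGy by 0.56 at an adjusted p that rounds to the threshold, and lost the call without 22 of the 30 arrays.

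Of the other hnRNPs and PTBP1, 22 tested probe sets gave 0 higher and 2 lower calls at 10 cGy in GM15036 (9.09%, near the background of 11.7%) and 6 higher and 0 lower in GM15510 (27.3%, background 5.91%). PTBP1, the polypyrimidine tract repressor, read 608, 669 and 559 at 10 cGy in GM15510, against 440, 424 and 417, and rose by 0.51 ± 0.10 (adjusted p = 0.000694; 0.149 after centring the unscaled arrays). It rose by 0.39 at 2.5 cGy (adjusted p = 0.00772) and passed at 0.34 at 5 cGy (adjusted p = 0.0345; lost without 5 arrays), where that centring turned the sign, to -0.37 and -0.069. In GM15036 PTBP1 was at -0.08 at 10 cGy (adjusted p = 0.693).
HNRNPU, a nuclear scaffold protein, rose at 10 cGy in GM15510 on 200593_s_at by 0.56 ± 0.12 (1047, 862 and 1111, against 670, 697 and 665; adjusted p = 0.00383; 0.104 after centring the unscaled arrays). Its set 200594_x_at passed at 0.57 (adjusted p = 0.0107) and was lost without GM15510 1 cGy replicate 2 (0.0535) or 10 cGy replicates 2 (0.0507) or 3 (0.0501). At 2.5 cGy that set passed at 0.53 (adjusted p = 0.0145), was lost without 4 arrays, and turned to -0.24 after centring the unscaled arrays and to -0.015 with brightness as a covariate. HNRNPM and HNRNPR also passed at 10 cGy in GM15510, at 0.37 and 0.32 (adjusted p = 0.02 and 0.0383), and lost their calls without 4 and 5 of the 30 arrays.
The second HNRNPK set, 200097_s_at, sloped down with dose in GM15036 as the first did, by -0.049 log2 per cGy (adjusted p = 0.000922, and 0.504 with brightness as a covariate), but went another way in GM15510. It was lower in GM15510 at 2.5 cGy, by 0.41 (393, 425 and 450, against 600, 521 and 574; adjusted p = 0.0103, 0.0627 without GM15510 1 cGy replicate 1 and 0.8 with brightness as a covariate), where 200775_s_at was higher, and at 10 cGy it was at 0.02. At 7.5 cGy it passed at -0.40 (adjusted p = 0.0422) and was lost without 7 of the arrays. In GM15036 it passed at 7.5 cGy at -0.39 (373, 352 and 340, against 398, 533 and 475; adjusted p = 0.0359), a call lost without GM15036 1 cGy replicates b (0.251) or c (0.113) or 7.5 cGy replicates b (0.112) or c (0.144).
SYNCRIP, also named hnRNP Q, passed at 10 cGy in GM15036 on 217834_s_at at -0.28 (353, 401 and 367, against 468, 454 and 441; adjusted p = 0.0285), a call lost without GM15036 1 cGy replicates a (0.0903) or b (0.0763) or 10 cGy replicates a (0.119) or c (0.0731). In GM15510 217833_at fell at 5 cGy by 0.51 (154, 139 and 117, against 184, 194 and 208; adjusted p = 0.00767), with 0.0582 without GM15510 1 cGy replicate 3 and 0.0563 without 5 cGy replicate 3. At 2.5 cGy it passed at -0.35 (adjusted p = 0.0488) and was lost without 22 of the arrays. HNRNPC, which binds U tracts, passed in no dose comparison; its 4 sets lay between -0.32 and 0.27 at 10 cGy in GM15036 and between -0.21 and 0.24 in GM15510. HNRNPL, HNRNPUL1, HNRNPUL2 and RBM39, a coactivator related to U2AF2, did not pass in any dose comparison either.

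**Figure D4:**
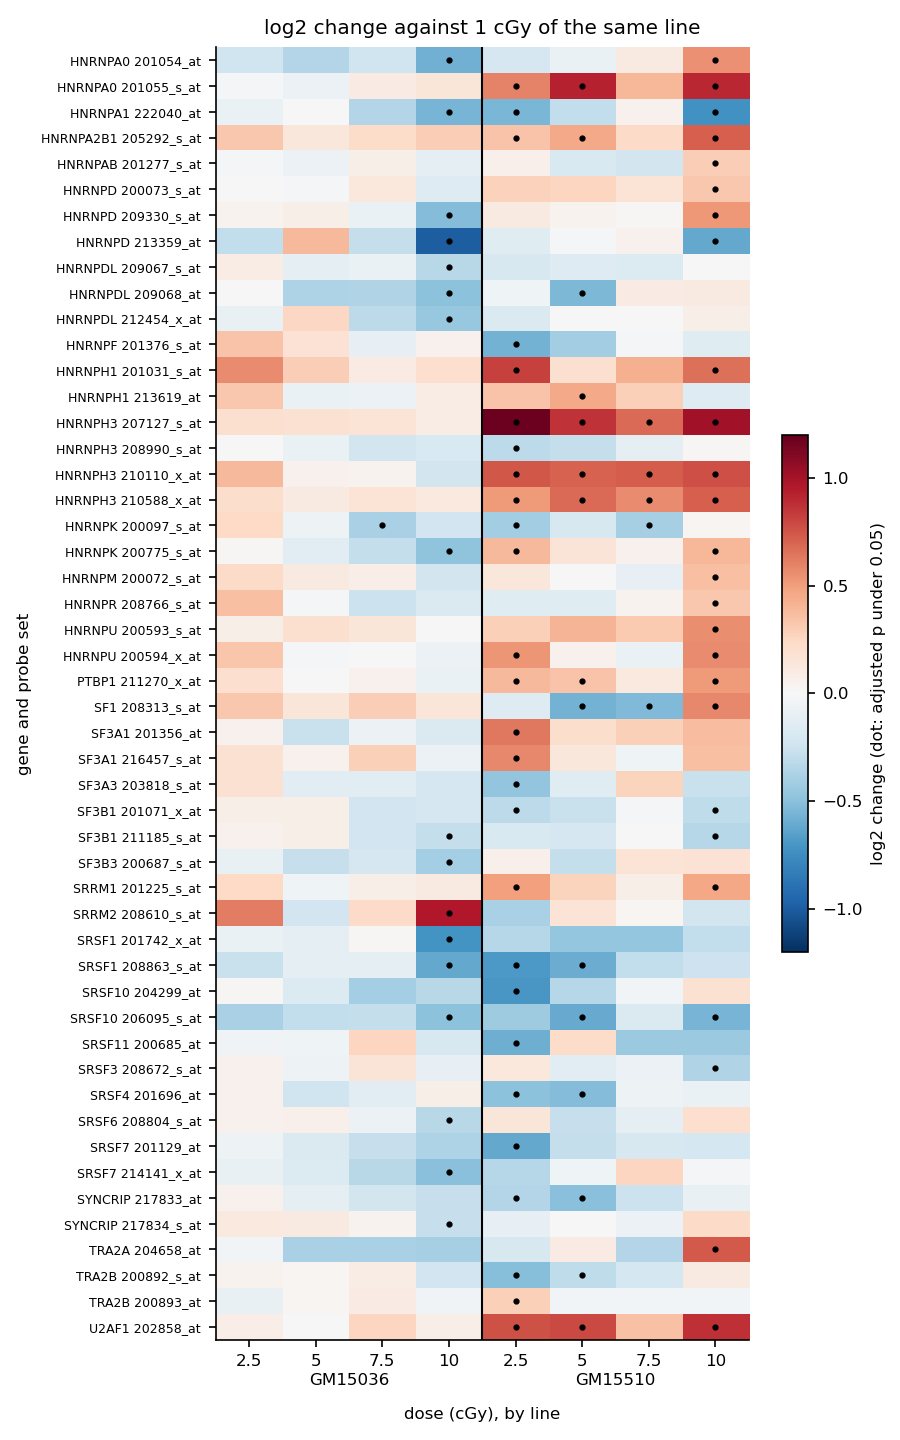
Rows are the 50 probe sets that passed in at least 1 dose comparison, columns the 4 doses against 1 cGy in GM15036 (left) and GM15510 (right), and colour the log2 change from blue (lower) to red (higher), with a dot where the adjusted p was under 0.05. Dots in GM15036 stand in the 10 cGy column except 1 at 7.5 cGy, while HNRNPH3 207127 carries a dot at each dose of GM15510.

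As a slope on dose, 25 splicing factor probe sets passed in GM15036, 1 upward and 24 downward (background 13%, with 5.23% upward and 7.77% downward), and 11 in GM15510, 10 upward and 1 downward (background 4.62%, with 2.72% upward and 1.9% downward). With brightness as a covariate the counts were 6 and 9, and without the 5 dimmest arrays 10 and 11. Centring the unscaled arrays gave 0 upward and 74 downward slopes in GM15036 and 42 upward and 0 downward in GM15510, and centring the scaled arrays gave 0 and 39, and 15 and 0. Mean brightness in GM15036 was lower at each higher dose than at 1 cGy and lowest at 10 cGy, and the part of this in the slopes was not tested further. In GM15036, 5 downward slopes passed whichever array was left out and in all alternatives, those of HNRNPD (213359_at), HNRNPA0 (201054_at), HNRNPR (208766_s_at), SF3B1 (211185_s_at) and HNRNPK (200775_s_at), the last 3 at -0.045, -0.038 and -0.056 log2 per cGy (adjusted p = 0.000903, 0.000802 and 4.49e-05). Not all of these were steady declines with dose. In GM15036 HNRNPR 208766_s_at stood at 0.36 at the lowest dose above 1 cGy and at -0.17 at 10 cGy, and passed at no dose. HNRNPD 213359_at stood at 0.39 at 5 cGy and at -0.99 at 10 cGy. HNRNPA0 201054_at was below its 1 cGy level at every higher dose. HNRNPR had the reverse slope in GM15510, at 0.039 (adjusted p = 0.00985), as had HNRNPD (209330_s_at), at 0.042 (adjusted p = 0.00308) against -0.053 in GM15036 (adjusted p = 7.09e-05). TRA2A (204658_at) sloped by -0.049 in GM15036 (adjusted p = 0.013, and 0.0524 without GM15036 1 cGy replicate c) and by 0.060 in GM15510 (adjusted p = 0.00645). The slopes of TRA2A 213593_s_at had the reverse signs and did not pass, at 0.026 and -0.035 (adjusted p = 0.618 and 0.594). Adding the brightness covariate gave adjusted p-values of 0.0522 for HNRNPR in GM15510, 0.0676 and 0.0953 for HNRNPD 209330_s_at in GM15036 and GM15510, and 0.578 and 0.186 for TRA2A 204658_at in the same order of lines. The single downward slope in GM15510 was that of SRSF3 (208672_s_at), -0.041 (adjusted p = 0.00103), which centring the unscaled arrays turned to 0.00056.

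The difference in dose response between the lines was tested directly as a line by dose interaction, an F test over the 4 doses. It passed for 49 of the 101 probe sets (48.5%), with a background of 20.5%, and 29 of the 49 held without each array. With brightness as a covariate 31 passed, and 32 without the 5 dimmest arrays. HNRNPD (209330_s_at) had the smallest adjusted p, 6.05e-07, followed by HNRNPR (208766_s_at) with 1.41e-05 and U2AF1 and SF1 (208313_s_at) with 3.06e-05 each. These 4 passed under every alternative tried.

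Averaged over doses, the lines themselves differed at 64 of the 101 probe sets, 37 higher and 27 lower in GM15036 than in GM15510 (background 47.2%, with 26.7% higher and 20.5% lower). The split was 18 higher and 42 lower after centring the unscaled arrays and 21 higher and 41 lower after centring the scaled ones. SRSF6 (206108_s_at) was 1.44 ± 0.17 higher in GM15036, with a range over 15 arrays of 23.5 to 57, against 0.926 to 24.7 in GM15510, where some arrays were near the pseudocount. HNRNPA2B1 was 0.67 ± 0.05 higher (2953 to 4399, against 1637 to 3041; adjusted p = 3.88e-13), and HNRNPA0 (201055_s_at) 0.80 ± 0.07 higher (adjusted p = 3.9e-12). On the lower side, SYNCRIP (209024_s_at) differed by -0.68, SRSF1 (201742_x_at) by -0.57, SRSF3 (202899_s_at) by -0.56 and HNRNPA3 (211932_at) by -0.55, with adjusted p-values from 1.24e-11 to 1.95e-07. With 1 line on each side, line and donor, culture or batch cannot be told apart.

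Other splicing genes, 107 listed and 89 of them tested on 164 probe sets, gave 16 higher and 13 lower at 10 cGy in GM15036 (17.7% called, background 11.7%), 11 higher and 9 lower at 10 cGy in GM15510 (12.2%, background 5.91%), and 8 higher and 19 lower at 2.5 cGy in GM15510 (16.5%, background 9.49%). The helicase DHX15, which releases spent spliceosomes, was lower in all 3 of these comparisons (-0.84, -0.56 and -0.71; adjusted p = 9.06e-06, 0.00221 and 0.000152). Its list of U5, tri-snRNP and helicase proteins had 29 tested probe sets. At 10 cGy in GM15036, 2 of them rose and 1 fell (10.3%, background 11.7%). In GM15510, 2 rose and 3 fell at 10 cGy (17.2%, background 5.91%), and 1 rose and 2 fell at 2.5 cGy (10.3%, background 9.49%). The kinases that phosphorylate SR proteins had 10 tested probe sets. At 10 cGy in GM15036, 1 rose and 1 fell (20%, background 11.7%). CLK2 was higher (0.34, adjusted p = 0.0482) and SRPK2 was lower (-0.74, adjusted p = 0.000217). At 10 cGy in GM15510, 0 rose and 2 fell (20%, background 5.91%), CLK1 (-0.61, adjusted p = 0.0206) and SRPK1 (-0.35, adjusted p = 0.0415). Among 27 probe sets of snRNP and Sm proteins, 1 rose and 3 fell at 10 cGy in GM15036 (14.8%, background 11.7%) and 1 rose and 0 fell in GM15510 (3.7%, background 5.91%). The other RNA-binding regulators had 79 tested probe sets. At 10 cGy, 11 rose and 8 fell in GM15036 (24.1%, background 11.7%), and 7 rose and 3 fell in GM15510 (12.7%, background 5.91%). Among them, RBM25 was higher at 10 cGy in both lines (0.96 in GM15036 and 1.10 in GM15510; adjusted p = 1.45e-05 and 2.16e-06), PCBP1 was lower in GM15036 (-0.88, adjusted p = 4.05e-06) and TAF15 was higher in GM15510 (1.23, adjusted p = 1.91e-11). The exon junction and export genes had 19 tested probe sets. At 10 cGy in GM15036, 1 rose and 0 fell (5.26%, background 11.7%). At 10 cGy in GM15510, 1 rose and 1 fell (10.5%, background 5.91%). There RNPS1 was higher (0.70, adjusted p = 0.00649) and UPF2 was lower (-0.40, adjusted p = 0.00712). For these genes beyond the members, results without single arrays, with brightness as a covariate or under the other alternatives are not given. Among the members, most calls in the dimmest group of each line were lost with that covariate. Whether the calls of these other genes would hold is therefore not shown.

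Over all doses, 50 probe sets of 32 genes passed in at least 1 comparison with 1 cGy, 13 genes in GM15036 and 29 in GM15510. No share of all 13331 tested probe sets is given for passing in at least 1 comparison. These pooled counts therefore have no background and describe the members alone. Where a gene had several probe sets, levels were not compared between them, and 19 of the 101 tested sets end in _x_at, a mark of probes that can match further transcripts. Genes called in both directions within 1 comparison were HNRNPH3, HNRNPK and TRA2B at 2.5 cGy and HNRNPD at 10 cGy, all in GM15510. These arrays read the 3-prime end of transcripts, and which exons were used was not measured.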

How the data were processed

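Signal intensities of 30 arrays of 22283 probe sets are on a linear scale and were computed by the authors with MAS5, per the submitters' processing notes; the version and scaling are not given in the sources used here. Labelling was 3-prime IVT, per the labels' protocols, while the series design names a T7 amplification kit. The deposited intensities were not at a common level: the brightest trimmed mean (2 to 98%) was 7.91 times the dimmest. All were scaled to the average of these means, 50.9, and log2(signal + 4) was taken, which understates changes of dim probe sets. Control probe sets (68) and those at or under the 40th percentile of mean log2 signal were dropped, leaving 13331. All arrays of the 10 line and dose groups entered 1 fit in limma 3.58.1 (R 4.3.3), lmFit and eBayes with trend, with 20 residual degrees of freedom, two-sided, Benjamini-Hochberg adjustment over all tested probe sets, threshold 0.05. A slope was fitted over the 5 doses. On simulated data for 10 against 1 cGy in GM15036 with 13331 probe sets, 57% of changes of 1 and 20% of changes of 0.5 (log2) were recovered, with 4 false calls. There 100 probe sets were changed by each size, with independent noise and no difference in brightness between doses. Recovery and false calls in the measured data, where brightness differed, may therefore be other than these. The precision is limited by 3 arrays a group. Pairs of arrays of 1 group correlated at 0.901 to 0.972.

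Probe set symbols came from the platform annotation, which can be old, updated by gene ID through a RefSeq table. The members, the lists of other splicing genes and the cell type markers were chosen with earlier results of these data known, and 1 listed B cell marker is not reported here. Per-array values are given for members past the threshold, at most 12 in each direction of a comparison by size, with 10 genes (SRSF1, SRSF3, SRSF7, TRA2B, HNRNPA1, HNRNPC, HNRNPK, U2AF1, SF3B1 and PTBP1) given whatever their test, and at most 2 others named a list, those with the smallest p. Where space was short, members that lost their call without single arrays are given without per-array values. Alternatives were quantile normalization, centring the unscaled or the scaled arrays on their medians, pseudocounts of 1 and 16, no filter, brightness as a covariate, the replicate label as a block, each line fitted alone and each array left out. Leaving out the 5 dimmest arrays was added after the data were seen. Figures were drawn with matplotlib 3.10.9 in Python 3.11.15.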

Additional observations from a re-analysis of the deposited data

Results flagged for a closer look

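The dose responses of GM15036 and GM15510 differed, by the line by dose interaction in limma with Benjamini-Hochberg adjustment, for 12 probe sets with the smallest p among the splicing factors. They were HNRNPD 209330_s_at (adjusted p = 6.05e-07), HNRNPR 208766_s_at (1.41e-05), U2AF1 202858_at (3.06e-05), SF1 208313_s_at (3.06e-05), TRA2B 200892_s_at (3.92e-05), TRA2A 204658_at (5.39e-05), HNRNPH3 207127_s_at (0.000108), SRSF6 208804_s_at (0.00012), HNRNPA0 201054_at (0.000134), SRRM2 208610_s_at (0.00014), HNRNPK 200775_s_at (0.000169) and SYNCRIP 217834_s_at (0.000208). Each passed without each array and under every alternative tried. At 10 against 1 cGy, the listed probe sets of HNRNPD, HNRNPA0 and HNRNPK were lower in GM15036 and higher in GM15510. Other probe sets of these genes did not all do so. The listed probe sets of U2AF1 and HNRNPH3 were higher in GM15510, with changes of 0.07 and 0.09 in GM15036. SRRM2 was higher in GM15036, by 0.96, with -0.22 in GM15510. Mean brightness at 10 cGy was 22.1 in GM15036 and 89.1 in GM15510. Of all splicing factor probe sets, 31 passed this test with brightness as a covariate and 32 without the 5 dimmest arrays.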

How the results depend on the processing

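The number of arrays, the gap in brightness between doses and the lack of an unirradiated group limit these results. Counts of splicing factor probe sets past the threshold moved with the scaling. The share of all tested probe sets that passed under each alternative is not given, so the counts here describe the members alone. Centring the unscaled arrays gave, for GM15036, 7 (7.5 cGy), 72 (10 cGy) and 74 slopes. Centring the scaled arrays gave 0, 43 and 39. In GM15510, the first gave 69, 37, 0 and 8 at 2.5, 5, 7.5 and 10 cGy, 42 slopes and 84 interactions. The second gave 41 at 2.5 cGy and 2 at 7.5 cGy. Quantile normalization gave 5 at 7.5 cGy in GM15036. With brightness as a covariate the counts were 0 at 7.5 cGy and 3 at 10 cGy in GM15036, 6 slopes there, 3 at 2.5 cGy and 7 at 5 cGy in GM15510, and 31 interactions. Without the 5 dimmest arrays they were 3 at 7.5 cGy, 5 at 10 cGy and 10 slopes in GM15036, 9 at 2.5 cGy in GM15510, and 32 interactions. With each line fitted alone, GM15036 had 3 at 2.5 cGy and 3 at 7.5 cGy, and GM15510 had 3 at 7.5 cGy. With no filter, 2 passed at 7.5 cGy in GM15510. The cause of each shift was not tested.

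Leaving out 1 array gave 0 to 1, 0 to 0, 0 to 5 and 13 to 19 calls at 2.5, 5, 7.5 and 10 cGy in GM15036, and 16 to 29, 7 to 17, 1 to 6 and 17 to 26 in GM15510. Slopes ran from 17 to 27 in GM15036 and from 10 to 14 in GM15510, interactions from 39 to 52 and line differences from 59 to 64.

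Reversed signs came mostly from centring the unscaled arrays at 2.5 cGy in GM15510: U2AF1 -0.00030, HNRNPH3 210110_x_at -0.012 and 210588_x_at -0.25, SF3A1 201356_at -0.11 and 216457_s_at -0.11, HNRNPU 200594_x_at -0.24, SRRM1 -0.28, PTBP1 -0.37, HNRNPK 200775_s_at -0.38, HNRNPA2B1 -0.44 and TRA2B 200893_at -0.50. Others were PTBP1 at 5 cGy, -0.069, and the SRSF3 slope in GM15510, 0.00056. With brightness as a covariate, HNRNPU at 2.5 cGy became -0.015, HNRNPA2B1 -0.047 and the SRSF10 204299_at slope in GM15036 0.0016.

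Replicate labels did not pair the arrays: same-label deviations correlated at -0.055 to 0.041 in GM15036 and -0.062 to 0.097 in GM15510. With the replicate label as a block, 0, 0, 1 and 17 passed for GM15036 at 2.5, 5, 7.5 and 10 cGy, and 26, 14, 4 and 25 for GM15510, with 24 and 12 slopes, 46 interactions and 64 line differences.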
